A study of Mus musculus with 4 samples.

Results

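The 7 genes followed here belong to the insulin-like growth factor 1 (IGF1) carrier system and were measured in the livers of ageing male mice. They are Igf1, Igfals, Igfbp1, Igfbp2, Igfbp3, Igfbp4 and Igfbp7. They were taken by name as the genes that a probe set of the array annotates with a single symbol, and all 7 of 7 were found, among 18193 genes named in this way. They were represented by 18 probe sets, a probe set being a group of short probes for 1 transcript.

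The animals were male C57BL/6J mice, an inbred strain, fed a low-fat diet without restriction, and no group was treated or genetically altered. Livers were taken at 4, 8, 13 and 21 months of age, the RNA of 6 mice was combined into 1 pool per age, and each pool gave 1 oligonucleotide array. With 4 arrays and 1 array per age no test between ages was possible and the spread between mice could not be estimated, so every difference compares 2 pools. Precision is limited by this number of arrays. Whether the mice had eaten, and the hour of collection, were not stated in the sources used here.

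IGF1 is a peptide hormone that carries much of the growth-promoting action of growth hormone, and the liver is the main source of the IGF1 in blood. In blood it travels mostly in a ternary complex with a binding protein, chiefly IGFBP3, and the acid-labile subunit encoded by Igfals, which keeps it from leaving the vessels. IGFBP1, IGFBP2 and IGFBP4 form smaller complexes that can cross into tissues. Hepatic Igfbp1 is held down by insulin and rises in fasting, and FOXO transcription factors act on its promoter through an insulin response element.

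Promoters are shown for Igfbp1 and Igfbp2, whose levels differed most between ages with 1 probe set a gene. They end at the base before an annotated transcript start. For Igfals short stretches only are given. All are from RefSeq for the build GRCm38.p6, 5′ to 3′ on the plus strand. All 7 genes had at least 1 window in that table. The Igfbp1 promoter (chr11:7197537-7197786) is printed with both arms of the insulin response element in capitals. The motifs searched for it were CAAAACA and CAAAATA on both strands. The first arm lies 108 to 102 bases and the second 97 to 91 bases before the start, and no other member's window held either motif.

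Igfbp1: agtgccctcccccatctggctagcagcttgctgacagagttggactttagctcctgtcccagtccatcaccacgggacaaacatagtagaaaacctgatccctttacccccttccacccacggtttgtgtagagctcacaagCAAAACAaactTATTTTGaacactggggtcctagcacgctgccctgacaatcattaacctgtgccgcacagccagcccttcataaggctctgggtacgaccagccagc

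Of all 32851 promoter windows of 300 bases in the table, 10.2% held 1 of these motifs or more and 1.10% held 2 or more. The Igfbp2 promoter printed (chr1:72824230-72824479) is from the first of 2 windows of that gene. It has no such motif and is rich in G and C, at 67.0% of the 300-base window. In it the capitals mark GGGCGG, the core of a GC box to which Sp1-type factors bind. There were 3 matches, counting both strands, where 35.7% of all windows held at least 1 and 19.5% held 2 or more. The second Igfbp2 window, not printed, had 0 matches and 57.3% G and C. The motif was not particular to Igfbp2 among the members, with 4 matches in the Igfbp7 window and 1 and 2 in windows of Igfals. A FOXO motif, GTAAACA, was also searched on both strands and occurred in 3.65% of all windows. Among the members it had 1 match, in a window of Igfals, and the Igfbp1 window held 0.

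Igfbp2: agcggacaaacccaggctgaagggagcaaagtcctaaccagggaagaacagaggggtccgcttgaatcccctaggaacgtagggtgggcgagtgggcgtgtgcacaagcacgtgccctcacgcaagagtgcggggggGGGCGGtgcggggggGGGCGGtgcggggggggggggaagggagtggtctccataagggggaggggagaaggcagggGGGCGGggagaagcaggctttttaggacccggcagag

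Igfals is a target of growth hormone acting through the transcription factor STAT5, whose motif TTCNNNGAA reads the same on both strands and occurred in 8.30% of all windows. Of the 3 Igfals windows 2 held it, and the windows of the other members, Igf1 included, did not. Both matches are shown in capitals with their flanks, the first at chr17:24877598-24877626 and the second at chr17:24878163-24878191. A match describes the letters only, and binding was not measured.

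Igfals, first match: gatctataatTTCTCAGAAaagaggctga

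Igfals, second match: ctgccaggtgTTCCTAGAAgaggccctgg

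The arrays were close to each other, with medians of 3.73 to 3.76 and Pearson correlations of 0.994 to 0.996 over all probe sets. All values are log2 expression levels, where a difference of 1 is 2-fold, and a level of 1 gene cannot be set against that of another. The tissue label was checked with hepatocyte genes, of which 5 of 6 were measured, and albumin (Alb) lay between 13.43 and 13.49. A gene was kept for counting where its mean level was at or above 3.74, the median over all probe sets, which left 11582 genes. All 7 members passed, and 1 of their 18 probe sets lay below this level. Where a gene had several probe sets, the one with the highest mean stood for it.

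Few of the members differed by much with age. A difference of at least 1.5-fold in either direction, which is 0.585 on the log2 scale, was reached by Igfbp1 at 8 vs 4 months and by Igfbp2 at 21 vs 13 months, and by no member in the other 3 comparisons. At 8 vs 4 months this is 1 of 7 members beside 0.855% of all kept genes. At 21 vs 13 months it is 1 of 7 beside 1.93%. At 13 vs 4, 21 vs 4 and 13 vs 8 months it is 0 of 7 beside 1.30%, 2.52% and 1.08%. The median absolute difference of the members at 21 vs 4 months was 0.14 and that of all kept genes 0.10. At 13 vs 8 months these were 0.18 and 0.10, and at 21 vs 13 months both were 0.11. At 8 vs 4 and 13 vs 4 months the members were at 0.07 and 0.06, below the 0.09 of all kept genes.

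**Figure D1:**
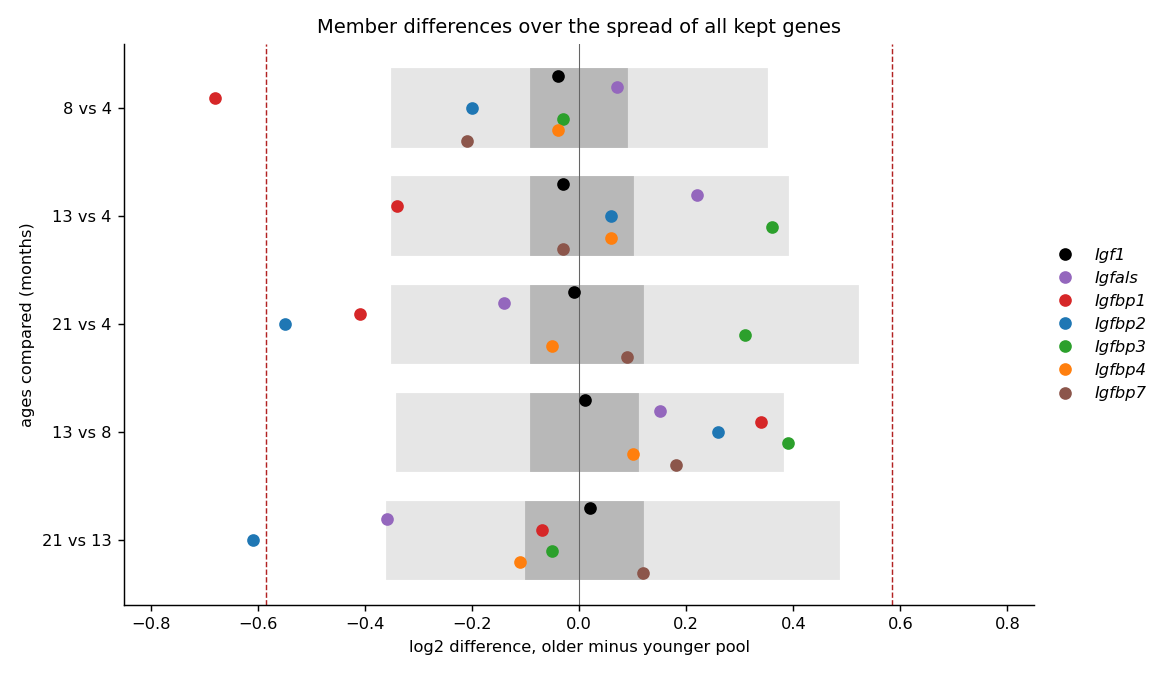
Log2 difference of each of the 7 members (points, 1 probe set a gene) for 5 pairs of ages, over the spread of all 11582 kept genes, of which the dark band holds the middle 50% and the light band the middle 95%. The dashed lines mark 1.5-fold, and only Igfbp1 at 8 vs 4 months (-0.68) and Igfbp2 at 21 vs 13 months (-0.61) lie beyond them.

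The ligand itself was nearly level. The Igf1 probe set with the highest mean read 11.08, 11.04, 11.05 and 11.07 at 4, 8, 13 and 21 months, a span of 0.04. The other 3 probe sets spanned 0.10, 0.16 and 0.17. At 21 vs 4 months the 4 probe sets ran from -0.14 to 0.06, with 1 higher and 3 lower, so they did not share a direction. At 8 vs 4 months all 4 were lower, from -0.17 to -0.02. Of all kept genes 96.6% differed at least as much as Igf1 at 21 vs 4 months.

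Igfals, which encodes the acid-labile subunit of the ternary complex, was highest at 13 months and lowest at 21. Its single probe set read 8.17, 8.24, 8.39 and 8.03 at the 4 ages. The 21-month level was 77.9% of the 13-month level, a difference of -0.36, and 7.84% of kept genes differed at least as much between these arrays. Against 4 months the difference was -0.14, which 39.5% of kept genes reached. Igf1 differed by 0.02 between 13 and 21 months.

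Igfbp3, the main binding protein of the ternary complex, is made in the liver mostly by cells other than hepatocytes. Its chosen probe set read 5.64, 5.61, 6.00 and 5.95, and the other read 5.64, 5.40, 6.07 and 5.93. The levels thus formed a lower pair at 4 and 8 months and a higher pair at 13 and 21 months on both probe sets. Against 4 months the differences were 0.36 and 0.43 at 13 months and 0.31 and 0.29 at 21 months. At 13 vs 8 months the second probe set differed by 0.67 and the chosen one by 0.39, so the size of 1.5-fold was passed on only 1 of 2.

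**Figure D2:**
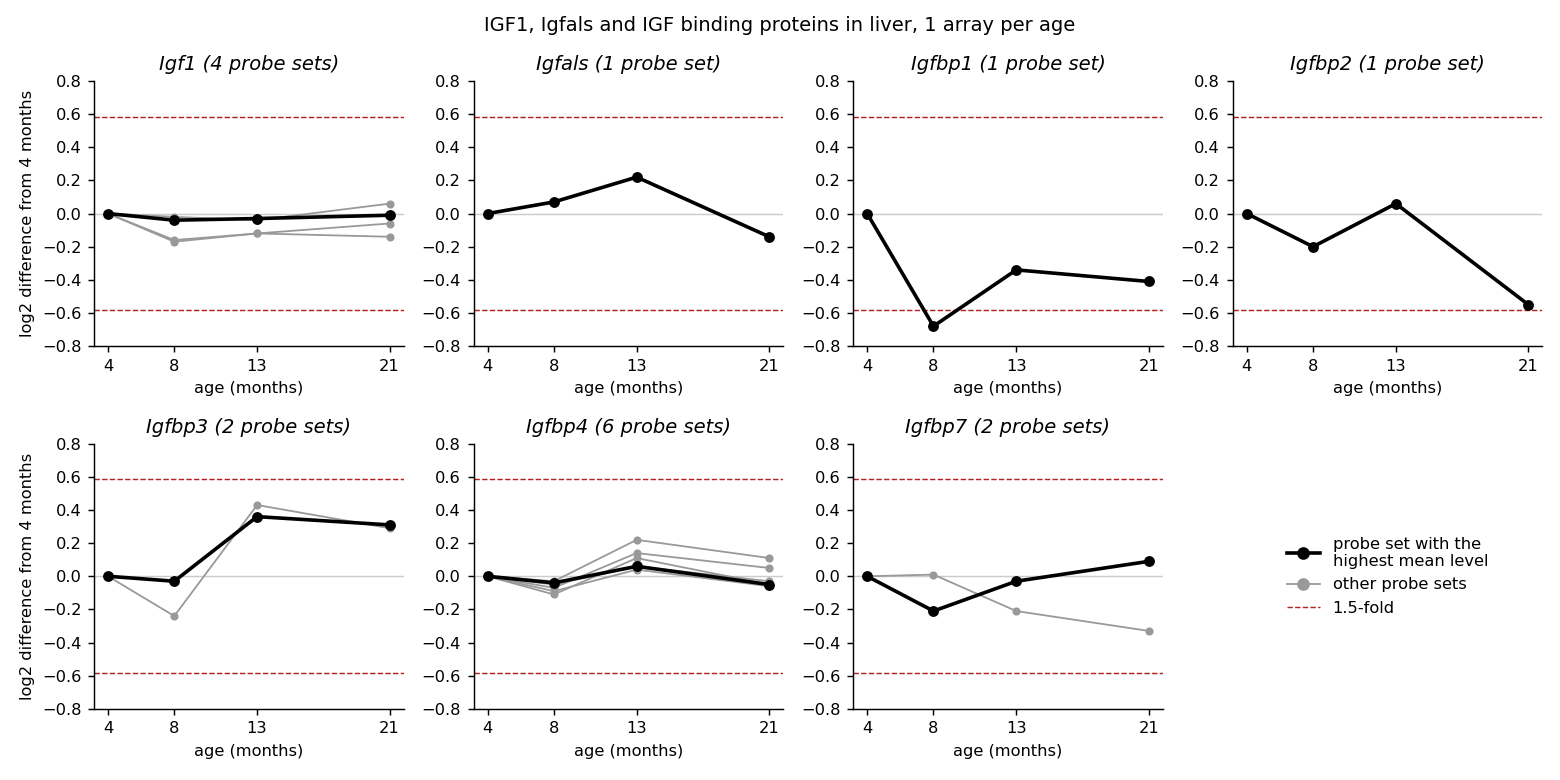
Log2 difference from the 4-month array (y axis) against age in months (x axis) for each member, 1 line a probe set, with the probe set of the highest mean in black and the 1 Igfbp7 probe set below the level filter left out. Igfbp1 is lowest at 8 months and Igfbp2 at 21 months, and Igf1 and Igfbp4 stay within 0.22 of their 4-month level. The 2 Igfbp7 probe sets differ from each other at 8, 13 and 21 months, most at 21.

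Igfbp1, the binding protein that insulin represses, was highest in the youngest pool. Its single probe set read 10.76, 10.08, 10.42 and 10.35. The 8-month level was 62.4% of the 4-month level, the 13-month level 79.0% and the 21-month level 75.3%. The difference of -0.68 at 8 months was reached in size by 0.492% of kept genes, that of -0.34 at 13 months by 6.56% and that of -0.41 at 21 months by 5.70%. The levels at 13 and 21 months differed by 0.07, a size that 67.7% of kept genes reached between those arrays. All 3 older arrays share the 4-month array as their baseline, so a deviation of that pool alone would enter each of these differences.

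Igfbp2, whose product is among the more abundant binding proteins of blood, was lowest in the oldest pool. Its single probe set read 11.10, 10.90, 11.16 and 10.55. The 21-month level was 65.5% of the 13-month level and 68.3% of the 4-month level. The difference of -0.55 at 21 vs 4 months was just short of 1.5-fold, and 2.82% of kept genes differed at least as much. It was -0.591 after quantile normalization and -0.586 after cyclic loess, just past that size. After centring on the median it was -0.53, and against the mean of the 3 younger arrays it was -0.50, each short of 1.5-fold. Igfbp1 and Igfbp2 had their lowest levels at different ages, and between 13 and 21 months Igfbp1 differed by -0.07 where Igfbp2 differed by -0.61.

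Igfbp4, which mostly holds IGF1 away from its receptor, was steady. The probe set with the highest mean read 12.26, 12.22, 12.32 and 12.21, a span of 0.11. The other probe sets spanned 0.11 to 0.25, the widest being that with the lowest mean. All 6 probe sets were lower at 8 than at 4 months, from -0.11 to -0.03, and all 6 were higher at 13 than at 4 months, from 0.04 to 0.22. At 21 vs 4 months 2 were higher and 4 lower, from -0.06 to 0.11. Probe sets of a gene share the RNA pool and can share probes, so their common sign is not replication.

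Igfbp7 encodes a related secreted protein that binds IGFs weakly and is made largely by endothelial and stellate cells. Its probe sets disagreed. The chosen one read 9.09, 8.88, 9.06 and 9.18, and a second read 6.40, 6.41, 6.19 and 6.07. At 21 vs 4 months they differed by 0.09 and -0.33. The last lay at 3.28 to 3.47, below the level filter. At 13 vs 4 months all 3 were lower, from -0.21 to -0.03, and at 21 vs 4 months no direction can be given for the gene.

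On the chosen probe sets all 7 members were higher at 13 than at 8 months, where 50.2% of all kept genes were. The median of the members was 0.18 and that of all kept genes 0.01. The difference of Igf1 in that count was 0.01, and it was -0.03 after quantile normalization and after cyclic loess. When the probe sets of each gene were averaged, that of Igfbp7 was -0.05. At 8 vs 4 months 6 of 7 were lower, with Igfals the exception, where 48.7% of all kept genes were lower. Both comparisons contain the 8-month array, with opposite signs.

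Growth hormone signalling lies upstream of Igf1 and Igfals. Of 10 listed genes 9 were kept, and 1 was at least 1.5-fold higher in any comparison with 4 months, Socs2 at 13 months. The growth hormone receptor gene Ghr read 10.81, 10.81, 10.55 and 10.87. Socs2, a feedback inhibitor that growth hormone induces, read 7.67, 8.24, 8.62 and 7.82. Cish, another STAT5-dependent feedback gene, read 7.26, 7.71, 7.75 and 7.09. On these probe sets both were highest at 13 months, as Igfals was, and the 21-month level differed from it by -0.80 and -0.66. Of the 3 other Socs2 probe sets above the level filter, which differed by -0.70, -0.32 and -1.33 at 21 vs 13 months, 1 was also highest at 13 months. At 21 vs 4 months the Socs2 probe sets had both signs, from -0.74 to 0.55. Most of the list did not fall with Socs2 and Cish. At 21 vs 13 months 7 of the 9 kept genes were higher and 2 lower, with a median of 0.22. At 21 vs 4 months 7 were higher and 1 lower, with a median of 0.20. The median over all kept genes was 0.01 in both comparisons. Igfals, Socs2 and Cish were compared after their values were seen, over 4 arrays.

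Among IGF ligands and receptors all 5 listed genes were kept and none differed by 1.5-fold from 4 months at any age. The insulin receptor gene Insr read 8.02, 7.76, 7.76 and 7.96, and Igf2r, which clears IGF2, read 6.51, 6.49, 6.38 and 6.41. Igf2, which is silenced in rodent liver after birth, lay between 3.75 and 4.01, next to the level filter. Of the other binding protein genes 2 of 3 were kept, Igfbp5 at 4.66, 5.01, 4.88 and 4.89 and Igfbp6 at 4.63, 4.39, 4.48 and 4.57. Of 8 genes for proteases that cut binding proteins and for their inhibitors 5 were kept, among them Adamts1 at 5.42 to 5.66 and Stc1 at 4.47 to 4.52. None of these passed 1.5-fold against 4 months.

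Downstream of the receptors 12 of 13 listed genes of IGF and insulin receptor signalling were kept, and none differed by 1.5-fold from 4 months. Grb14, an adaptor that restrains the insulin receptor, read 8.47, 8.46, 8.51 and 8.55, and the docking protein gene Irs1 read 8.04, 7.89, 7.77 and 7.80. Over all 5 lists together, 33 of 39 genes were kept. The number past 1.5-fold was 0 at 8 vs 4 months, 1 at 13 vs 4 and 0 at 21 vs 4, with medians of 0.01, 0.01 and 0.03. At 13 vs 8 months 1 was lower, the inflammation-induced inhibitor Socs3 at -0.61 on the chosen of its 3 probe sets. With the probe sets of each gene averaged, 0 genes of these lists passed 1.5-fold there, so the Socs3 call depends on the probe set. At 21 vs 13 months, on the chosen probe sets, 1 was higher, Socs3 at 0.65, and 3 were lower, Socs2, Cish and Irs2.

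Genes that fasting and FOXO factors induce were set beside Igfbp1 and Igfbp2. Of 10 listed 9 were kept, of which Tat is also a hepatocyte marker and Irs2 a signalling gene above. At 8 vs 4 months 4 were higher and 5 lower, and 1 was at least 1.5-fold lower, Tat, which encodes tyrosine aminotransferase and read 11.47, 10.81, 11.07 and 11.12. The chosen probe set of the coactivator gene Ppargc1a differed by -0.58 at 8 months, 3 further probe sets above the level filter by -0.13 to 0.03. Pck1 and G6pc, the gluconeogenic enzymes, differed by -0.02 and -0.06.

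At 21 vs 4 months 8 of the 9 fasting genes were lower and 1 higher, with a median of -0.35 beside 0.01 over all kept genes. Angptl4, which inhibits lipoprotein lipase, differed by -0.67 and was the only one past 1.5-fold. Between 13 and 21 months 3 of the 9 were higher and 6 lower, with a median of -0.10, and 3 were at least 1.5-fold lower. Pdk4, a brake on pyruvate use, differed by -0.98, Fgf21, a fasting hormone, by -0.82 and Irs2 by -0.59, where Igfbp2 differed by -0.61. Pdk4 and Fgf21 were however higher at 8 than at 4 months, by 0.54 and 0.30, where Igfbp1 and Igfbp2 were lower. The part of feeding or of the hour of collection in these differences was not tested and cannot be told apart from age.

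**Figure D3:**
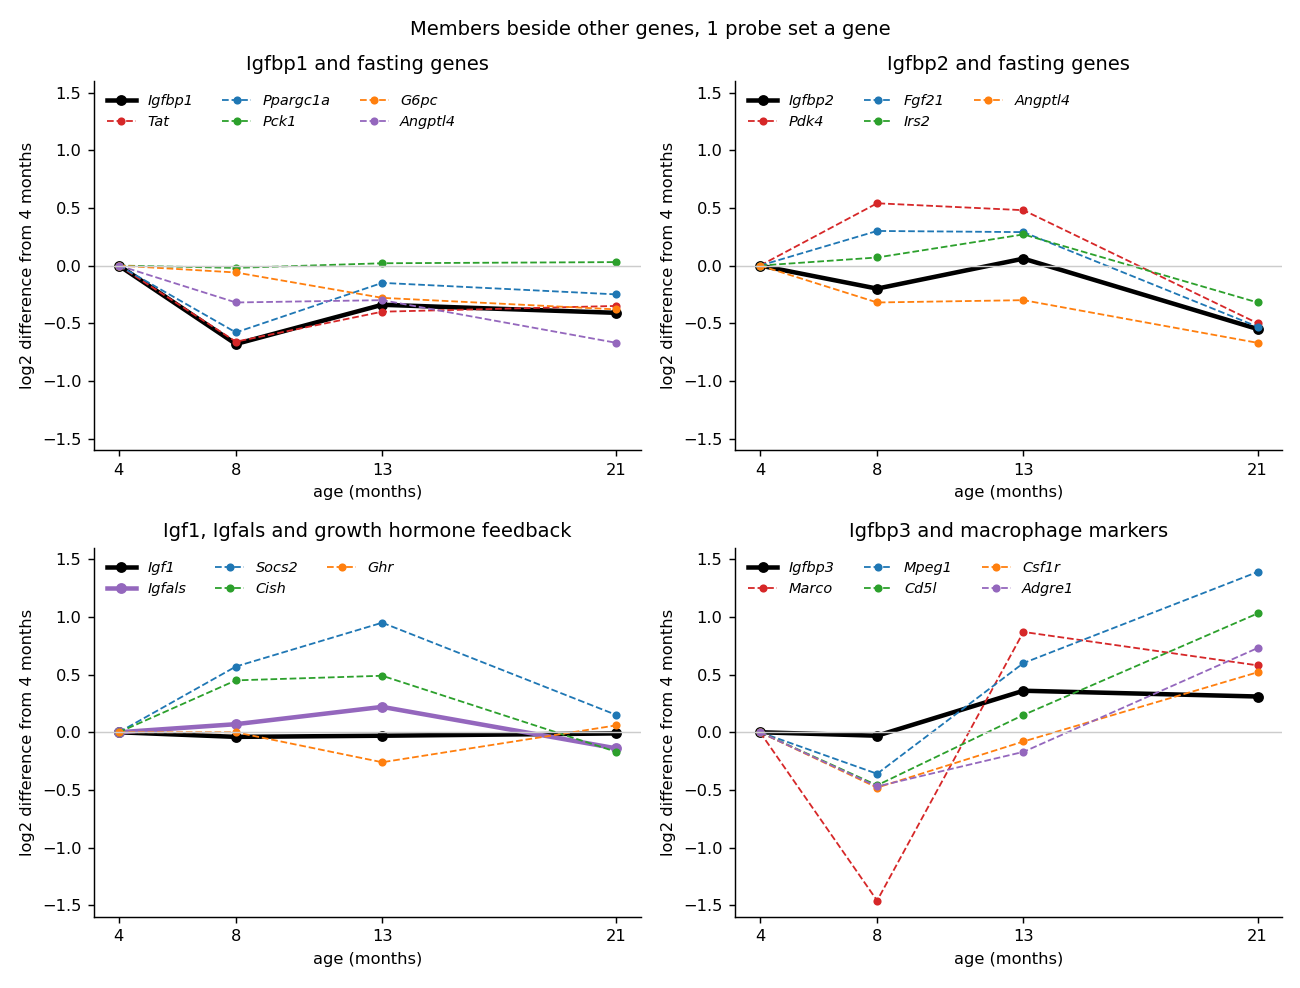
Log2 difference from the 4-month array (y axis) against age in months (x axis), with members as thick solid lines and other genes, picked after their values were seen, as dashed lines. Tat runs close to Igfbp1 at every age while Pck1 stays near 0. Igfals and Socs2 are highest at 13 months, where Cish is only 0.04 above its 8-month level and Ghr is lowest. Igf1 is flat throughout. Igfbp3 is above its 4-month level at 13 and 21 months. At 13 months Marco, Mpeg1 and Cd5l are above theirs and Csf1r and Adgre1 below.

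The genes most like a member were sought for the 2 members whose chosen probe set spanned at least 1.5-fold, by the root mean square difference of profiles centred over the 4 arrays. Nearest to Igfbp1 were Zfp942 at 0.011, Sgsm1 at 0.037 and Tat at 0.043. Nearest to Igfbp2 were Tmtc2 at 0.042, D630004K10Rik at 0.043 and Bbs10 at 0.056. Several of these are dim genes, with Zfp942 at 4.78, 4.08, 4.45 and 4.37. With Pearson correlation as the measure, 1 of the 3 was again among the nearest of Igfbp1 and 0 of the 3 among those of Igfbp2.

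Igfbp3 and Igfbp7 are made mostly by cells that are few in liver, and in whole tissue fewer cells of a type and less RNA per cell cannot be told apart. Of 8 markers of macrophages and Kupffer cells, all kept, 8 were lower at 8 than at 4 months (median -0.42), 5 were higher at 13 months (median 0.15) and 8 were higher at 21 months (median 0.75), 5 of them by 1.5-fold. The 4 largest at 21 vs 4 months were Mpeg1 at 1.39, Cd5l at 1.03, Timd4 at 0.98 and Cd68 at 0.76. The log2 of the summed level of all 8 markers, in which the brightest probe sets weigh most, was 11.0, 10.6, 11.1 and 11.8 at the 4 ages. At 13 months the markers were mixed, with Marco at 0.87 and Mpeg1 at 0.60 but Adgre1 at -0.17, Csf1r at -0.08 and Clec4f at -0.06. Between 13 and 21 months 7 of the 8 were higher and Marco differed by -0.29, where Igfbp3 differed by -0.05 and -0.14 on its 2 probe sets.

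Of 8 sinusoidal endothelium markers, all kept, none was past 1.5-fold at 13 or 21 vs 4 months, and the medians were -0.04 and 0.03. At 8 vs 4 months 1 was, the hyaluronan receptor gene Lyve1 at -0.92, but its second probe set differed by -0.43, short of that size. The log2 of the summed level of all 8 markers ran from 10.3 to 10.4. Of 8 stellate cell markers, all kept, none was past 1.5-fold in any comparison, with a median of 0.19 at 21 vs 4 months and a summed level of 11.1 to 11.3. The part of any of these cells in the Igfbp3 and Igfbp7 levels was not tested. Of other tissues, 2 of 4 bile duct genes, 3 of 5 lymphocyte genes, 2 of 4 muscle genes and 0 of 2 adipose genes that were measured passed the level filter, and none of those that passed reached 1.5-fold. The bile duct keratin gene Krt19, with a mean below the filter, read 3.48, 4.99, 3.32 and 2.99, so the 8-month pool stood out in it.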

How the data were processed

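The deposited values are log2 expression levels of 45101 probe sets, made by the authors with RMA per the submitters' processing notes. RMA corrects background, normalizes between arrays and summarises probes, so a shift shared by most genes would not be visible and differences of dim probe sets are compressed. Neither its version nor which arrays were normalized as 1 set is stated in the sources used here. No detection calls were used.

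Gene names came from the annotation table of the platform. Of all probe sets 34945 had 1 gene symbol, 932 several, 9160 none, and 64 were controls. All 7 members matched a current gene table by identifier. The members and gene lists were chosen with earlier results of these data known.

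No test was run, because each age has 1 array, and differences are described by size with a threshold of 1.5-fold beside all kept genes. Genes named were all members, list genes past the threshold against 4 months, the 2 with the highest mean value in each pathway list, up to 4 of each marker list past it at 21 vs 4 months, and the 3 nearest profiles. Others, namely Cish, Irs2, Igf2, Alb, Marco, Adgre1, Csf1r, Clec4f, Socs3, Lyve1, Krt19 and the fasting genes, were chosen after their values were seen. The counting step was checked on simulated data. Alternatives were other normalizations, probe set rules, filters, thresholds and baselines. Normalization alternatives used limma 3.58.1 in R 4.3.3, and all else Python 3.11.15 with pandas 2.3.3, numpy 2.4.6 and matplotlib 3.10.9.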

Additional observations from a re-analysis of the deposited data

How the results depend on the processing

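Of 147 member differences recomputed under other normalizations, the mean over probe sets or a baseline of the 3 younger arrays, 145 kept their side of 1.5-fold and 6 changed sign, none of them larger than 0.18 as reported. The 2 that crossed were Igfbp2 at 21 vs 4 months, -0.59 after quantile normalization and -0.59 after cyclic loess, so that 1 member was past the size there. With a threshold of 2-fold no member passed, 0 at 8 vs 4 and 0 at 21 vs 13 months, and the genes past it numbered 15 at 8 vs 4, 27 at 13 vs 4, 69 at 21 vs 4, 24 at 13 vs 8 and 42 at 21 vs 13 months, with 0 pathway genes in each of 13 vs 4, 13 vs 8 and 21 vs 13. With no filter on level 154 genes passed 1.5-fold at 8 vs 4 months. A filter at the 75th percentile, which leaves fewer genes, gave 46, 86, 168, 68 and 142 in the same order. With the mean over probe sets the pathway genes past the size were 0 at 13 vs 4, 0 at 13 vs 8 and 2 at 21 vs 13 months, and after quantile normalization or cyclic loess 1 at 8 vs 4 months. Of the 3 nearest profiles of Igfbp1, 1 was found again with the mean over probe sets, 1 after quantile normalization and 1 with Pearson correlation, and of Igfbp2 1 with the mean over probe sets, 1 with no filter and 0 with Pearson correlation. No paired analysis was possible because each age has 1 array. The causes were not tested. Igfals, Igfbp1 and Igfbp2 rest on 1 probe set each, and no replicate array gives an error for any value.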

Other observations

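Among protein-coding genes Igfbp1 lies next to Igfbp3 on chromosome 11, and Igfbp2 next to Igfbp5 on chromosome 1. At 21 vs 4 months the neighbours had opposite signs in both pairs, -0.55 for Igfbp2 beside 0.23 for Igfbp5 and -0.41 for Igfbp1 beside 0.31 for Igfbp3. At 13 vs 4 months Igfbp1 was at -0.34 and Igfbp3 at 0.36, and Igfbp2 was at 0.06 and Igfbp5 at 0.22. At 8 vs 4 months Igfbp1 differed by -0.68 and Igfbp3 by -0.03, and Igfbp2 by -0.20 and Igfbp5 by 0.35. The second Igfbp5 probe set differed by 0.00 at 8, -0.04 at 13 and 0.06 at 21 vs 4 months. The size at 8 and 21 months and the sign at 13 months thus depend on the probe set. These pairs were picked after the values were seen and no reason for the signs was tested.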
